A study of Mus musculus with 4 samples.

Results

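The genes described here encode AP-1 transcription factors: Fos, Fosb, Fosl1, Fosl2, Jun, Junb, Jund, Atf3 and Maff. They were chosen by symbol, and all 9 were found among the 32230 symbols of the deposited expression table. The study sequenced polyadenylated RNA from 4F2A mouse embryonic fibroblasts, taken from mid-gestation male embryos homozygous for 4F2A. The recorded embryo age, in days post coitum, was the same for every library. The 4F2A allele expresses Oct4, Sox2, Klf4 and Myc when doxycycline is given. Every library came from cells kept in doxycycline at 2 µg/mL for 48 h in medium with leukemia inhibitory factor, and RNA was taken on day 2. The 2 groups differed in what was added on day 0 for 1 h: DMSO, the vehicle, or CX-5461, an inhibitor of RNA polymerase I. Each group had 2 libraries, numbered 2 and 3, and no untreated or uninduced fibroblasts were analysed here. Nothing in the labels says that the 2 libraries of a group came from separate cultures, and the spread that p-values are set against may be technical.

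AP-1 factors bind DNA as pairs through a basic region and a leucine zipper. Proteins of the Fos group need a Jun partner to bind, whereas Jun proteins can also pair with each other. Atf3 belongs to the ATF/CREB branch and mostly acts as a repressor when paired with itself. Maff is a small Maf protein without an activation domain of its own. Fos, Fosb, Jun, Junb and Atf3 are classical early response genes, induced within minutes by growth factors and stress. In fibroblasts AP-1 occupies many enhancers of somatic genes, and Jun is known to hinder reprogramming when it is overexpressed.

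Values are TPM, transcript abundance, scaled by gene length so that the genes of a library sum to 1000000. Recovered read totals ran from 35.0M to 37.3M per library. Mitochondrially encoded genes took 15.3% of the TPM of DMSO replicate 3 and 9.20% to 9.96% in the other 3 libraries. With values rescaled without those genes and the 20 highest genes, 4 AP-1 genes again passed. Fibroblast transcripts were abundant: Col1a1, Col1a2, Col3a1 and Vim lay at 890.0 TPM or above in every library. Col3a1 was nonetheless lower after CX-5461, as were the fibroblast markers Lum, Pdgfra, Dcn and Thy1. Bulk RNA cannot tell fewer cells of a type from less RNA per cell.

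Transcripts of 4 AP-1 genes rose after CX-5461: Atf3, Fosl1, Junb and Fosl2. No tested member fell. Jun, Jund, Fos and Maff did not pass, and Fosb lay too low to be tested. The largest difference was that of Atf3, whose mean level was 2.12-fold that in DMSO. Each difference below is the CX-5461 mean of log2(TPM + 1) less the DMSO mean, and for low genes it is smaller than the true change. All 14621 genes whose mean reached 1 TPM were tested with limma, at a threshold of 0.05 on the adjusted p. In simulated libraries the same fit called more unchanged genes than that threshold allows. By this rule 11.6% of all genes tested were higher and 8.21% were lower (19.8% in either direction), against 4 higher and 0 lower of the 8 AP-1 genes tested. The median difference was 0.41 over these 8 genes and 0.07 over all genes tested. In all 8 both CX-5461 libraries lay above both DMSO libraries, as they did in 38.2% of all genes tested.

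Atf3 (chromosome 1, 191170296 to 191218039, minus strand, mm10) is a stress-induced factor and a target of both p53 and the integrated stress response. It stood at 12.6 and 12.8 TPM in DMSO replicates 2 and 3, and at 23.1 and 30.6 TPM in CX-5461 replicates 2 and 3. The DMSO libraries were nearly equal, while the CX-5461 libraries lay apart from each other with replicate 3 the higher. The log2 difference was 1.01 (SE 0.15, 95% interval 0.64 to 1.39, limma adjusted p = 0.00941). Behind these values stood 279 and 318 reads with DMSO and 511 and 665 with CX-5461. The call ended without CX-5461 replicate 3 (difference 0.82, adjusted p = 0.0700) and without DMSO replicate 3 (1.02, adjusted p = 0.0566).

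Junb (chromosome 8, 84974484 to 84978718, minus strand), the Jun protein that often restrains Jun activity and proliferation, had the next smallest adjusted p. It stood at 130.6 and 114 TPM with DMSO and at 186 and 212 TPM with CX-5461. The groups did not overlap, and the gap between them was wider than the gap within either. The log2 difference was 0.70 (SE 0.11, 95% interval 0.42 to 0.97, limma adjusted p = 0.0113). It shares 173 of its 2301 exon bases with Prdx2 on the opposite strand, and whether the counting used strand is not given in the sources used here. Prdx2, a peroxiredoxin, stood at 288 and 217 TPM with DMSO and at 254 and 250 TPM with CX-5461 (difference 0.01, adjusted p = 0.962). Without CX-5461 replicate 2 or 3 the adjusted p of Junb was 0.0687 and 0.126 (differences 0.79 and 0.60).

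Fosl1 and Fosl2 encode Fra-1 and Fra-2, Fos proteins that lack the strong activation domain of Fos and accumulate later than Fos after a stimulus. Fosl1 (chromosome 19, 5447547 to 5455946, plus strand) stood at 21.8 and 29.1 TPM with DMSO and at 40.3 and 47.0 TPM with CX-5461. Replicate 3 was the higher of the pair in both groups, and the groups did not overlap. The log2 difference was 0.77 (SE 0.16, 95% interval 0.37 to 1.16, limma adjusted p = 0.0260). Of its 2033 exon bases, 1163 are shared with Ccdc85b on the opposite strand, so reads of the 2 genes may be mixed. Ccdc85b stood at 21.9 and 19.5 TPM with DMSO and at 31.8 and 34.5 TPM with CX-5461 and was itself higher (0.66, adjusted p = 0.0125). The call of Fosl1 ended without DMSO replicate 2 (0.57, adjusted p = 0.0540), CX-5461 replicate 2 (0.87, 0.0975) or CX-5461 replicate 3 (0.66, 0.182).

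Fosl2 (chromosome 5, 32135801 to 32157842, plus strand) was the most abundant Fos gene in every library. It stood at 84.7 and 74.0 TPM with DMSO and at 109 and 112 TPM with CX-5461, with the CX-5461 pair closer together than the DMSO pair. The log2 difference was 0.47 (SE 0.10, 95% interval 0.23 to 0.71, limma adjusted p = 0.0251). It rested on 8279 to 10894 reads per library. Leaving out CX-5461 replicate 2 or 3 ended its call (adjusted p = 0.155 and 0.199). Fosl1 and Fosl2 also missed the threshold without limma's trend and robust options (adjusted p = 0.0607 and 0.0650) and with no filter on low values (0.0644 and 0.0547).

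**Figure D1:**
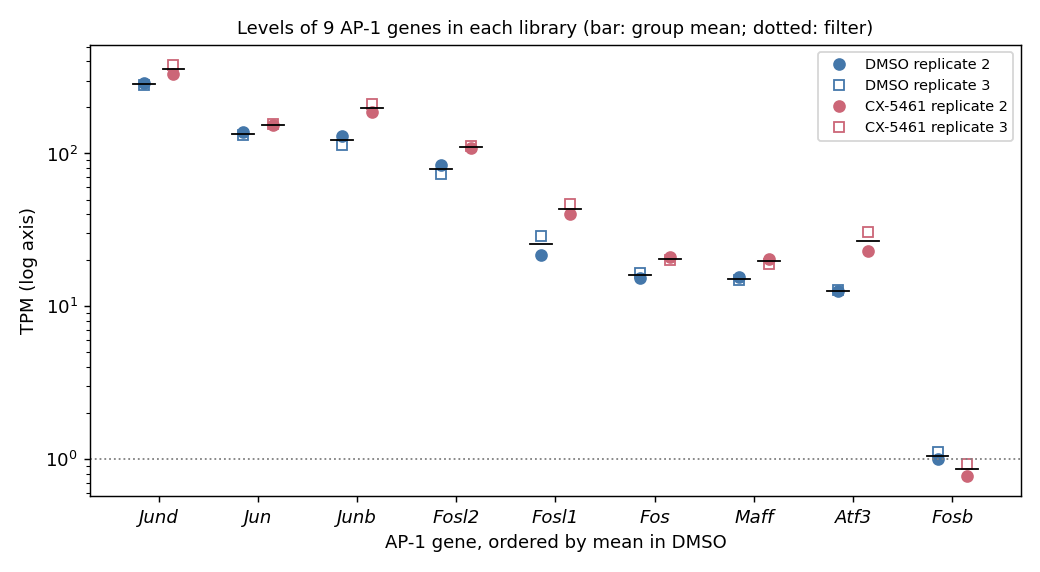
TPM of the 9 AP-1 genes on a log axis, with each library as a point, group means as bars and the filter of 1 TPM as a dotted line. Both CX-5461 points lie above both DMSO points in every gene but Fosb, and Atf3 moves from the eighth place to the sixth.

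The promoter windows below are shown because these genes stand for both outcomes: Atf3, Junb and Fosl2 rose, and Jun did not pass. RefSeq (GRCm38.p6) gave promoters for 8 of the 9 genes, with no entry for Fosl1. Each line holds the 250 bases before the RefSeq start, 5′ to 3′ on the gene's strand. For Atf3 and Fosl2 that start lies inside the gene span given above, and positions are counted from it. Capitals mark, on both strands, the AP-1 motif TGANTCA, the CRE-like motifs TGACNTCA and TNACGTCA, the shorter core TGACG that they can overlap, the CCAAT box and the TATA box TATAAA. These motifs were chosen with the sequences in view.
Atf3, chr1:191183334-191183583, minus strand: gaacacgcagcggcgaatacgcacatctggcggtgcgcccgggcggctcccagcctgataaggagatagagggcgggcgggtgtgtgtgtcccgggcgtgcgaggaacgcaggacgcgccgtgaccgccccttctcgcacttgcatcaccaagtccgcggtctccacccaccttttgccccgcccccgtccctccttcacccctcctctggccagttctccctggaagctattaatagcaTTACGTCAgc
Junb, chr8:84978749-84978998, minus strand: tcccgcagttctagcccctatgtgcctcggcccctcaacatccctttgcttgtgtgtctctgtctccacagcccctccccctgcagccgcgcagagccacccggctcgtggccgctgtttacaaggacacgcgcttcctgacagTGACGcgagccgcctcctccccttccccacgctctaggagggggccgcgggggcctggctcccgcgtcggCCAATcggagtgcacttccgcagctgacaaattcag
Fosl2, chr5:32136222-32136471, plus strand: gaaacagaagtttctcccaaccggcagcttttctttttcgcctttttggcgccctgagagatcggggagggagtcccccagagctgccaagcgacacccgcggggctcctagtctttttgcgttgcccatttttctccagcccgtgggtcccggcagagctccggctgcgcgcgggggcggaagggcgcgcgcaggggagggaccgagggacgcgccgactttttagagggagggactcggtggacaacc
Jun, chr4:95052223-95052472, minus strand: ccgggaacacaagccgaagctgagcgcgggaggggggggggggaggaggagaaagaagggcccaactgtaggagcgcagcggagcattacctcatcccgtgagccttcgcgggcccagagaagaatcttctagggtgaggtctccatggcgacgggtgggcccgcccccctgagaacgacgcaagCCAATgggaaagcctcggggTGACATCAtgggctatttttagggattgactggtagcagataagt

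The TNACGTCA match of Atf3 begins at position -10 from the start, and 2.53% of 32536 RefSeq promoter windows of this length held that motif. The TGACNTCA match of Jun begins at position -45, and 7.43% of windows held that motif. Junb held TGACG at position -106 and a CCAAT box at -36, found in 17.9% and 33.8% of windows. Fosl2 held none of the motifs in capitals. TGANTCA was in 0 of the 10 windows of AP-1 genes and in 6.73% of all windows. The serum response element core, the CArG box, was in 0 of the 10 and in 1.48% of all. A match describes letters only, and a window without one says nothing of a factor's binding elsewhere.

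Jund and Jun, the members of the Jun group that did not pass, held ranks 1 and 2 with DMSO, and ranks 1 and 3 with CX-5461. Jund (chromosome 8, 70698949 to 70700616, plus strand), the Jun protein typical of resting cells, stood at 288 and 281 TPM with DMSO and at 331 and 378 TPM with CX-5461. Its difference of 0.31 had a 95% interval of 0.08 to 0.55 (limma adjusted p = 0.0717), and it passed when recovered reads were tested with voom (0.26, adjusted p = 0.0278), a test that called 16% of all genes higher and 5 AP-1 genes. An antisense gene, Gm11175, shares 877 of its 1668 exon bases and was not analysed here. Jun (chromosome 4, 95049034 to 95052222, minus strand), which encodes c-Jun, stood at 139 and 131 TPM with DMSO and at 153 and 156 TPM with CX-5461. Its difference of 0.19 had a 95% interval of -0.01 to 0.39 (adjusted p = 0.153), the smallest among the 8 tested genes. The antisense transcript Junos shares 232 of the 3189 exon bases of Jun and lay between 6.50 and 11.9 TPM.

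Fos (chromosome 12, 85473890 to 85477273, plus strand), the founding member, stood at 15.3 and 16.6 TPM with DMSO and at 21.0 and 19.99 TPM with CX-5461. The groups were narrow and did not overlap, and the difference was 0.35 (95% interval 0.08 to 0.61, limma adjusted p = 0.0750). Maff (chromosome 15, 79346621 to 79359076, plus strand) stood at 15.6 and 14.8 TPM with DMSO and at 20.5 and 18.8 TPM with CX-5461 (0.35, 95% interval 0.08 to 0.62, adjusted p = 0.0745). Before adjustment 7 of the 8 tested genes had a limma p under 0.05, Jun being the exception. The share of all genes under that cut was not counted, but it exceeds the 19.8% called after adjustment. A limma p of 0.0497 (Krt5) became an adjusted p of 0.139, so many genes outside AP-1 also lie under this cut. Fosb (chromosome 7, 19302696 to 19310051, minus strand), a close relative of Fos, stood at 0.997 and 1.11 TPM with DMSO and at 0.780 and 0.937 TPM with CX-5461. It was the one AP-1 gene with both CX-5461 libraries below both DMSO libraries, an order found in 26.3% of all genes tested. The Fosb values rested on 64 and 80 reads with DMSO and 50 and 59 with CX-5461. Fitted without the filter, its difference was -0.14 (limma adjusted p = 0.674).

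**Figure D2:**
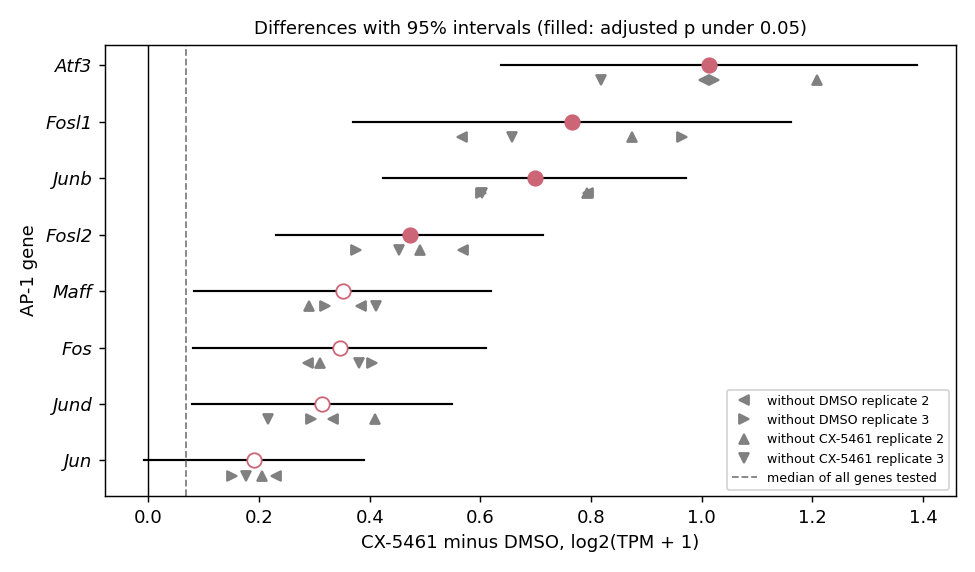
Difference in log2(TPM + 1), CX-5461 less DMSO, for the 8 tested AP-1 genes, with 95% limma intervals, filled points for an adjusted p under 0.05 and grey marks for the value with 1 library left out. Differences run from 0.19 for Jun to 1.01 for Atf3, and every value with a library left out stays above 0.

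The number of AP-1 genes called was 3 without DMSO replicate 2, 3 without DMSO replicate 3, 1 without CX-5461 replicate 2 and 0 without CX-5461 replicate 3. Over all genes the number called higher was 1694 with all libraries. It rose without DMSO replicate 2, where the AP-1 number fell, and it fell without each of the other libraries. The median difference over the tested AP-1 genes was 0.48, 0.39, 0.45 and 0.43. With each of 3 other scalings (median of ratios, quantile, and the rescaling above) 4 genes were called, and the median was 0.35, 0.33 and 0.34.

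The order of levels also differed between the groups. With DMSO it ran Jund, Jun, Junb, Fosl2, Fosl1, Fos, Maff, Atf3, Fosb. Jun and Junb were hardly apart there, with the lower Jun library at 131.3 TPM and the higher Junb library at 130.6 TPM, and Fos and Maff overlapped. With CX-5461 Junb stood second, its lower library at 186 TPM and the higher Jun library at 156 TPM. Atf3 stood sixth, above Fos and Maff, which again overlapped. All other neighbours in the order were apart in both groups.

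Ratios within a library are not changed by a scaling factor common to all its genes, though quantile normalization can change them. The pairs given here were chosen after the values were seen. The ratio of Junb to Jun was 0.941 and 0.869 with DMSO and 1.22 and 1.36 with CX-5461, so Junb passed from the lesser to the greater of the pair. The ratio of Atf3 to Jun was 0.0907 and 0.0972 with DMSO and 0.151 and 0.197 with CX-5461. The ratio of Fosl1 to Fos was 1.43 and 1.75 with DMSO and 1.92 and 2.35 with CX-5461. In each of these ratios the groups did not overlap, which gives an exact two-sided permutation p = 0.333, the smallest that 2 against 2 libraries allow. The ratio of Fosl1 to Fosl2, at 0.258 and 0.393 with DMSO and 0.370 and 0.421 with CX-5461, overlapped between the groups.

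The pool of AP-1 transcripts was mostly of the Jun group in all libraries. Summed over the 9 genes it came to 709 and 674 TPM with DMSO and to 884 and 975 TPM with CX-5461, a ratio of means of 1.34. The Jun group (Jun, Junb, Jund) summed to 558 and 526 TPM with DMSO and to 670 and 746 TPM with CX-5461. The Fos group (Fos, Fosb, Fosl1, Fosl2) summed to 123 and 121 TPM with DMSO and to 171 and 179.5 TPM with CX-5461. Both sums were higher in both CX-5461 libraries, by ratios of means of 1.31 and 1.44. Within the Jun group the share of Junb was 22.6 ± 1.22% with DMSO and 28.1 ± 0.465% with CX-5461 (SD, n = 2). The share of Jun was 24.9 ± 0.0535% and 21.8 ± 1.38%, and that of Jund 52.5 ± 1.16% and 50.0 ± 0.913%. Within the Fos group Fosl2 held 69.0% and 61.3% with DMSO and 63.7% and 62.2% with CX-5461, so its share overlapped between the groups. Fos itself, the best known member, held 11.1% to 13.8% of the Fos group.

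**Figure D3:**
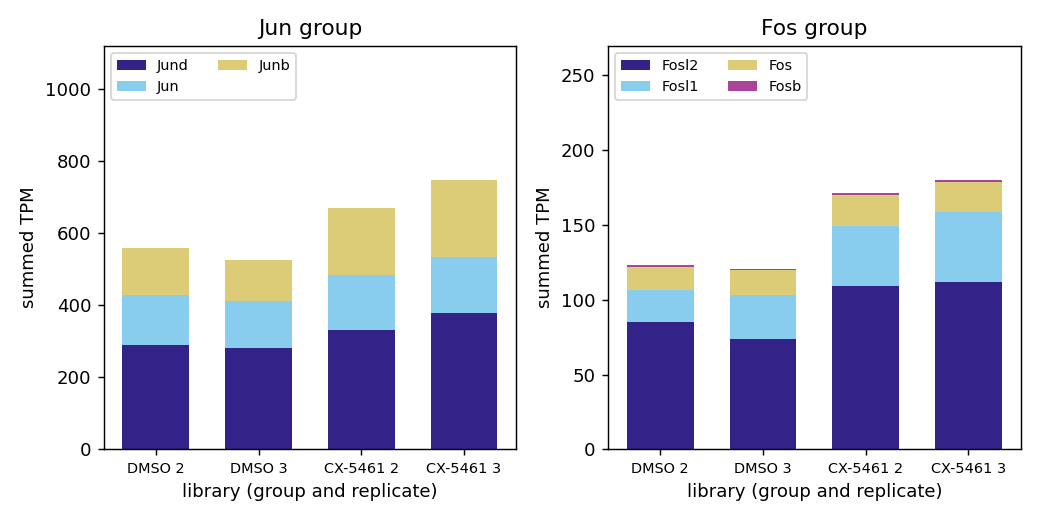
Summed TPM of the Jun group and the Fos group in each library, stacked by gene, with a separate axis for each group. The Jun group reaches 526 to 558 TPM with DMSO and 670 to 746 TPM with CX-5461, and the Fos group 121 to 123 and 171 to 179.5 TPM.

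Of 26 tested genes among 31 others that pair with AP-1 proteins or share their zipper, 5 were higher, 1 was lower and 20 did not pass. These 6 calls of 26 are near the 19.8% called in either direction among all genes, and the median difference was 0.10 against 0.07. Mafk, a small Maf like Maff, rose from 46.6 ± 1.40 to 72.8 ± 0.224 TPM (n = 2, limma adjusted p = 0.00611). Ddit3, the stress factor CHOP, rose from 64.5 ± 0.00581 to 87.5 ± 0.814 TPM (adjusted p = 0.0179). Cebpb and Cebpa, C/EBP factors of differentiation, rose from 94.1 ± 1.97 to 130.1 ± 9.41 TPM and from 9.56 ± 1.11 to 19.6 ± 4.69 TPM (adjusted p = 0.0210 and 0.0220). The member that fell was Jdp2, a dimerization partner and repressor of Jun, named after its value was seen (69.0 ± 1.62 to 51.1 ± 6.73 TPM, adjusted p = 0.0488). The numbers higher and lower were 6 and 0 without DMSO replicate 2, and 2 and 1 without DMSO replicate 3. They were 1 and 0 without CX-5461 replicate 2, and 0 and 0 without CX-5461 replicate 3. The calls of Mafk, Ddit3 and Cebpb ended without either CX-5461 library (adjusted p = 0.0790 to 0.206), and that of Cebpb also without DMSO replicate 3 (0.0530). The call of Cebpa ended without DMSO replicate 2 (0.0537), DMSO replicate 3 (0.103) or CX-5461 replicate 3 (0.127).

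Of 33 tested genes of the MAP kinase cascades, which lead to phosphorylation of AP-1 proteins, 3 were higher and 0 lower. That is near or below the background of 11.6% higher and 8.21% lower. The median was 0.05, against 0.07 over all genes, and turned to -0.01, -0.01 and -0.02 with those 3 scalings and to -0.03 without DMSO replicate 3. Mapk13, the p38 delta kinase, rose from 13.1 ± 0.860 to 31.1 ± 2.87 TPM (difference 1.19, limma adjusted p = 0.00263) and passed whichever library was left out. Map2k4, which activates the JNK kinases, rose from 70.7 ± 2.13 to 101.5 ± 9.41 TPM (adjusted p = 0.0199), and the JNK gene Mapk9 from 33.5 ± 2.79 to 47.3 ± 3.04 TPM (0.0281). Both of these calls ended without DMSO replicate 3, CX-5461 replicate 2 or CX-5461 replicate 3 (adjusted p = 0.0682 to 0.213). In the cascades 6 genes were higher without DMSO replicate 2, and 1 was higher without each of the other libraries in turn. With voom on recovered reads 6 were higher and 6 lower, against 2270 higher and 2184 lower of the 14151 genes so tested.

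Of 9 tested genes among SRF, its ternary complex partners and related MEF2 factors, which drive early response genes, 0 passed with limma. The 2 with the smallest limma adjusted p were Mef2a (26.8 ± 2.41 and 33.5 ± 1.03 TPM, 0.0873) and Mef2c (3.97 ± 0.0541 and 2.67 ± 0.0191 TPM, 0.129). Tested with voom on recovered reads, 2 of these genes passed, 1 higher and 1 lower. Of all 14151 genes so tested, 2270 were higher and 2184 lower. Of 22 genes that control AP-1 stability, messages or activity, 1 was higher and 2 were lower, with a median of -0.07. These shares are near or below the 11.6% and 8.21% of all genes. Fbxw7, the ubiquitin ligase receptor that marks Jun for degradation, rose from 17.0 ± 0.286 to 27.9 ± 2.48 TPM (limma adjusted p = 0.0115). Men1, which encodes the Jund-binding protein menin, fell from 61.3 ± 1.67 to 39.9 ± 2.70 TPM (adjusted p = 0.00994). Trib3, a pseudokinase induced by Atf4 and Ddit3, fell from 28.1 ± 0.537 to 12.3 ± 0.824 TPM (difference -1.13, adjusted p = 0.00232), and its call held with each library omitted in turn. The calls of Fbxw7 and Men1 ended without CX-5461 replicate 2 (adjusted p = 0.0647 and 0.0706) or replicate 3 (0.121 and 0.120). The numbers higher and lower in this list were 2 and 3 without DMSO replicate 2, 1 and 3 without DMSO replicate 3, and 0 and 1 without either CX-5461 library. Under quantile normalization 1 was higher and 6 were lower. Over all genes 1638 were then higher and 1646 lower, against 1694 and 1201 in the main fit.

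Genes described as AP-1 targets rose more often than they fell. Of 32 tested, 9 were higher, 1 was lower and 22 did not pass, with a median of 0.26, against the 11.6% higher and 8.21% lower among all genes. Plau, the urokinase gene, stood at 45.7 and 44.5 TPM with DMSO and at 104 and 107 TPM with CX-5461 (difference 1.21, limma adjusted p = 0.000931), and it passed whichever library was left out. Inhba, which encodes an activin subunit, rose from 154 ± 1.62 to 245 ± 2.71 TPM (adjusted p = 0.00421), and Fst, which encodes the activin antagonist follistatin, from 85.4 ± 8.10 to 137 ± 7.12 TPM (0.00915). Hmox1, the stress-induced heme oxygenase, rose from 312 ± 20.6 to 520 ± 28.3 TPM (0.00522). The calls of Inhba, Fst and Hmox1 ended without either CX-5461 library (adjusted p = 0.0619 to 0.119). Ccl2, a chemokine named after its value was seen, was the target that fell, from 157 ± 12.1 to 112 ± 3.52 TPM (0.0198). Without CX-5461 replicate 2 the list gave 1 higher and 0 lower, and without CX-5461 replicate 3 it gave 1 and 1. Each of these targets also answers to other factors, and AP-1 binding was not measured.

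**Figure D4:**
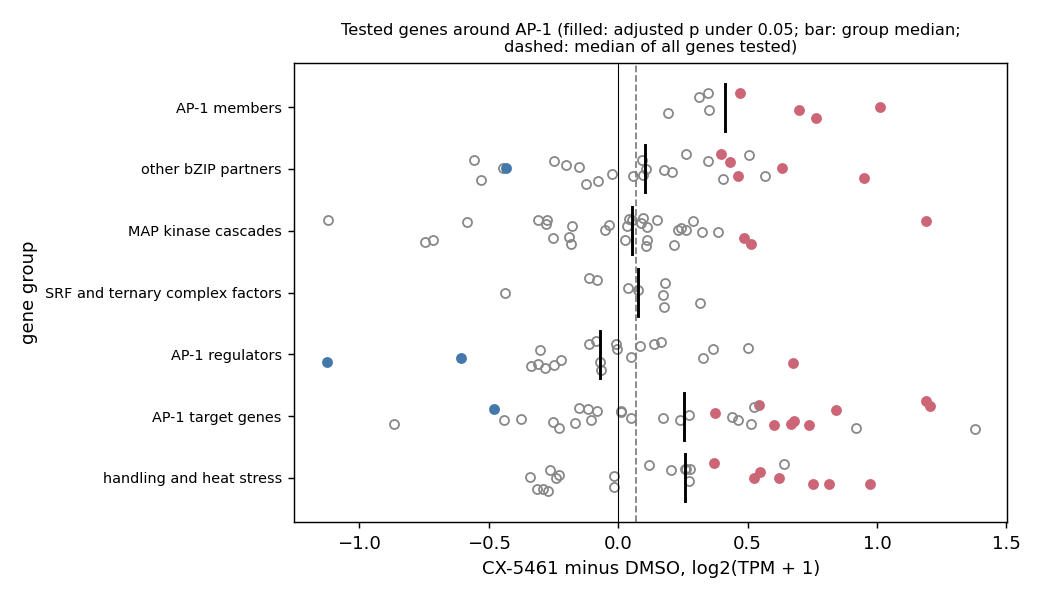
Difference in log2(TPM + 1), CX-5461 less DMSO, for tested genes in 7 groups, with filled points for an adjusted p under 0.05, bars for group medians and a dashed line at the median of all genes tested. The AP-1 genes have the highest median (0.41) and no point below 0, while the other groups spread over both sides.

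Of 23 tested early response and heat stress genes, which handling of cells can induce together with AP-1, 7 were higher, 0 were lower and 16 did not pass. Among all genes 11.6% were higher and 8.21% lower. The median of the list was 0.26, and its summed level ran from 3448 to 3614 TPM with DMSO and from 3658 to 3712 TPM with CX-5461. Btg2, an antiproliferative early response gene, rose from 79.0 ± 10.2 to 155 ± 7.27 TPM (limma adjusted p = 0.00437). Socs3, a feedback inhibitor of cytokine signaling, rose from 30.8 ± 0.122 to 55.2 ± 5.29 TPM (0.00535). Hspb1 and Hspa1a, heat shock proteins, rose from 410 ± 18.9 to 631 ± 28.6 TPM and from 44.2 ± 2.42 to 65.03 ± 3.58 TPM (0.00696 and 0.0143). The heat stress genes did not move together. Hspa1b and Dnajb1 were also higher, and Dnajb4 did not pass (difference 0.28). Hspa8 and Hsph1 had differences of -0.27 and -0.29 and did not pass (limma adjusted p = 0.072 and 0.0696). Dnaja1 and Hspe1 had differences of -0.01 and -0.02. Among early response genes that did not pass, Nr4a1, Nr4a2, Ier2, Egr2 and Egr3 had differences below 0. Those of Egr1, Nr4a3, Ier3, Klf6, Gadd45b and Ppp1r15a were above 0. The calls of Btg2 and Hspb1 ended without either CX-5461 library (adjusted p from just over the threshold to 0.121), that of Socs3 without CX-5461 replicate 3 (0.0698), and that of Hspa1a without DMSO replicate 3 (0.05), CX-5461 replicate 2 (0.130) or CX-5461 replicate 3 (0.107). With each of the 3 other scalings 6 of the list were higher and 3 lower. Over all genes 1621 to 1652 were then higher and 1646 to 1687 lower, against 1694 and 1201 in the main fit. Without DMSO replicate 3 the list gave 3 higher, without CX-5461 replicate 2 it gave 1, and without CX-5461 replicate 3 it gave 0. The part of handling in the AP-1 result was not tested.

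Markers of other cell types that can express AP-1 genes were read beside them. Among all genes tested 11.6% were higher and 8.21% lower. Of 9 tested genes among 12 macrophage markers, 3 rose (Lyz2, Cd14 and Adgre1) and 0 fell. These 3 calls ended without either CX-5461 library (limma adjusted p = 0.0541 to 0.118), as some of the AP-1 calls did, and that of Cd14 also without DMSO replicate 3 (0.0557). The list summed to 672 and 677 TPM with DMSO and to 942 and 1074 TPM with CX-5461, most of it Lyz2, which rose from 518 ± 14.5 to 815 ± 56.7 TPM. Aif1 was listed at 0 in every library, and Ptprc lay between 0.656 and 1.27 TPM. Other macrophage markers were present and did not pass: C1qa, C1qb, C1qc and Cd68 at 17.7 to 52.6 TPM, and Csf1r at 9.43 to 13.1 TPM. Of 7 tested keratinocyte markers 1, Dsc3, rose, with 0.648 and 0.416 TPM with DMSO and 2.11 and 2.88 TPM with CX-5461. The median of this list was 0.57. Both CX-5461 libraries lay above both DMSO libraries in 5 of the 7 genes, against 38.2% of all genes tested. With voom, which called 16% of all genes higher, 3 of the 7 were higher and 1 lower, as with a replicate block. The summed level of all 11 listed markers overlapped between the groups (39.1 and 51.3 TPM, 36.6 and 49.3 TPM), with Krt14 the most abundant at 26.4 and 26.9 TPM with DMSO and 10.8 and 18.5 TPM with CX-5461. Of 4 tested endothelial markers Kdr rose from 6.29 ± 0.180 to 24.0 ± 0.197 TPM and Tek fell from 44.0 ± 0.441 to 33.3 ± 0.890 TPM. The calls of Dsc3 and Tek each ended whichever library was omitted (limma adjusted p = 0.0567 to 0.221), while that of Kdr held each time. The endothelial gene Pecam1 lay at 0.0937 TPM or below. Of 13 fibroblast markers 5 fell and 1 rose, against 8.21% lower and 11.6% higher among all genes. Those that fell were Lum, Pdgfra, Dcn, Thy1 and Col3a1, and the 1 that rose was Fn1. Over all genes the number lower was 1201 in the main fit, 1655, 1646 and 1687 with the 3 other scalings and 2184 with voom. In the fibroblast list the number lower was 9, 8 and 9 with those scalings and 9 with voom. It was 6 without DMSO replicate 2, 8 without DMSO replicate 3, 2 without CX-5461 replicate 2 and 1 without CX-5461 replicate 3. The list had a sum of 16359 and 13598 TPM with DMSO and 13465 and 12862 TPM with CX-5461. The part of these cells in the AP-1 result was not tested.

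The genes whose pattern over the 4 libraries lay nearest to a member were found by the distance between centred log2(TPM + 1) values, among the 11457 genes whose mean reached 5 TPM. Nearest to Atf3 were Ctxn1 (distance 0.03) and the pseudogene Rps19-ps3 (0.07). Nearest to Junb were Mmd (0.03) and Lpar6 (0.03), to Fosl1 Dnajc4 (0.04) and Aldh1l1 (0.07), and to Fosl2 Emc7 (0.01) and Usp19 (0.01). Nearest to the other members were Gtf3c3 and Lxn for Fos, Fam210a and Eif1a for Jun, Ddx49 and Gtf2h3 for Jund, and Gm3435 and Zfp677 for Maff. Within a distance of 0.1 lay 3 genes for Atf3, 4 for Fosl1, 52 for Junb, 226 for Fosl2 and 614 for Jun.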

How the data were processed

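Polyadenylated RNA of 4 libraries in 2 groups was sequenced as paired-end reads on an Illumina NovaSeq instrument, per the labels. The authors deposited TPM values, with a total of 1000000 in every library. Per the labels' protocols, BMKCloud was used to clean the reads. The submitters' processing notes name build mm10. Aligner, counter, annotation and use of strand: not given in the sources used here. Groups and replicate numbers came from the sample titles, and 0 columns were left unused.

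A gene was tested if its mean reached 1 TPM. The test was that of limma 3.58.1, run in R 4.3.3 on log2(TPM + 1) values (eBayes with trend and robust, no covariate), with Benjamini-Hochberg adjustment over all 14621 genes tested. The fit had 2 residual and 3.75 prior degrees of freedom. Tested on simulated data with known changes, the procedure recovered most changes of 2-fold or more but called more unchanged genes than its threshold promises. Read numbers were recovered as TPM times GENCODE M21 exon length times a constant per library. Among values under 10000 reads, 69.5% to 69.8% by library were whole to within 0.01, and 6 of the 9 AP-1 genes had whole reads in every library. The exceptions were Jun, Junb and Jund, whose read numbers are approximate. Overlaps and coordinates came from GENCODE M21 (mm10).

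The members, gene lists and tests were chosen with earlier results of these data known. Named genes were all 9 members, in each list the 4 lowest adjusted p among called genes (2 where none passed), and the 2 nearest patterns per member. Alternatives were pseudocounts of 0.1 and 5, a filter of 5 TPM or none, 3 scalings, limma without its options, a replicate block and each library left out. limma's voom on recovered reads was chosen after seeing the data. Fits that omit 1 library take the remaining one of that group to vary as the other group does. Python 3.11.15, numpy 2.4.6, pandas 2.3.3 and matplotlib 3.10.9 were used.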

Additional observations from a re-analysis of the deposited data

How the results depend on the processing

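Over 112 values of the 8 tested AP-1 genes under other settings, 98 kept their direction and side of the threshold, 13 no longer passed, 1 newly passed and 0 changed sign. The 13 were all values of Atf3, Junb, Fosl1 or Fosl2, the genes with a call to lose. The 98 include values of Jun, Jund, Fos and Maff, which did not pass in the main fit either. Fosl1 and Fosl2 (differences 0.77 and 0.47) missed the threshold with no filter (limma adjusted p = 0.0644 and 0.0547). They also missed it without limma's trend and robust options (0.0607 and 0.0650), and 2 AP-1 genes were called in each of these settings. Jund passed with voom (difference 0.26, adjusted p = 0.0278). With 1 library left out, differences ran from 0.82 to 1.21 for Atf3, 0.60 to 0.79 for Junb, 0.57 to 0.96 for Fosl1 and 0.38 to 0.57 for Fosl2. Over all genes, calls then ran from 237 to 2047 higher and from 364 to 891 lower. Numbers called in the lists ran from 0 to 3 for the AP-1 genes, 0 to 6 for bZIP partners, 1 to 6 for MAP kinase cascades, 1 to 5 for AP-1 regulators, 1 to 10 for AP-1 targets and 0 to 7 for handling and heat stress. Fits without 1 CX-5461 library took their spread from DMSO only.

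Genes higher numbered 1694 of all tested, 1051 with no filter and 1128 without limma's options. Genes lower numbered 1201, and 2184 with voom. bZIP partners called fell to 3 with no filter or without limma's options and came to 10 with voom. With voom 12 MAP kinase genes, 2 of the SRF list, 8 regulators and 11 handling genes were called, in either direction. Of all 14151 genes tested with voom, 2270 were higher and 2184 lower. Without limma's options 4 handling genes were called. Regulators called came to 6 under median-of-ratios scaling and to 7 under quantile normalization and under rescaling. Over all genes the number lower was 1655, 1646 and 1687 under these scalings. The ratio of the summed Fos group was 1.44, and 1.37, 1.35 and 1.37 under these 3 scalings, and that of the Jun group was 1.31, and 1.21 under quantile normalization. The cause of these shifts was not tested.

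The libraries share replicate numbers 2 and 3, but nothing ties a number to a culture, and same-numbered deviations correlated at 0.03 across genes. With a replicate block 1589 genes were higher and 1100 lower, and the calls of Atf3 (adjusted p = 0.00455), Junb (0.0116), Fosl2 (0.0312) and Fosl1 (0.00636) held. With 2 libraries per group, differences the size of that of Jun could not be told from 0 here.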
